A study of Homo sapiens with 4 samples.

Results

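A set of 8 mature miRNAs that are enriched in neural cells was followed in small RNA libraries of human HEK293T cells, an embryonic kidney line that expresses the large T antigen of SV40. The set was defined by name, without a cutoff on level or change, but was chosen with earlier results of these data known. It holds hsa-miR-9-5p, hsa-miR-9-3p, hsa-miR-124-3p, hsa-miR-128-3p, hsa-miR-129-5p, hsa-miR-132-3p, hsa-miR-132-5p and hsa-miR-212-5p, written without the species prefix from here on. These are 8 of the 2656 mature miRNAs in the deposited count table. All cells carried a landing pad, an engineered genomic site that accepts a transgene. The pad held the CAG promoter (a synthetic hybrid of viral enhancer and chicken actin promoter sequence) in 2 libraries and the PGK promoter (from the phosphoglycerate kinase gene) in the other 2, and no untreated parental cells were analysed here. The series asked which miRNAs differ between the lines. The lines were monoclonal, how many clones stand behind each pair of libraries was not stated in the labels, and promoter and clone therefore cannot be told apart. P-values measure only the spread between these samples.

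A miRNA is cut as a duplex from a hairpin precursor, and 1 strand of the duplex (the 5p or the 3p arm) is usually loaded into Argonaute while the other is degraded. The loaded strand finds mRNAs mainly through its seed, nucleotides 2 to 8 from its 5′ end, and lowers their stability and translation. In the vertebrate nervous system miR-9 acts in neural precursors, miR-124 is the dominant miRNA of neurons, miR-128 and miR-129 are enriched in brain, and miR-132 and miR-212 are induced by neuronal activity through CREB. The transcription factor REST and its cofactor CoREST, which repress neuronal genes in other tissues, are known targets of the miR-9 arms.

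The mature sequences show which of these miRNAs share a seed and which loci have an arm of their own. RefSeq (GRCh38.p14) gave a sequence for 7 of the 8 members and 5 of the 6 other arms of their hairpins. Sequences run 5′ to 3′, with the seed in capitals.
miR-9-5p: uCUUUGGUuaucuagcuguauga
miR-9-3p: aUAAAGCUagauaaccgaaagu
miR-128-3p: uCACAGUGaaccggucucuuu
miR-129-5p: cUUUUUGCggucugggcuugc
miR-132-3p: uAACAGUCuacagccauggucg
miR-212-3p: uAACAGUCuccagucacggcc
miR-132-5p: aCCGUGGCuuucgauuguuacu
miR-212-5p: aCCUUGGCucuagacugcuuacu
The 7 members with a sequence were 21 to 23 nucleotides long and had 7 different seeds. miR-132-3p and miR-212-3p (an arm of the MIR212 hairpin that is not among the 8) have the seed AACAGUC in common and match over their first 9 nucleotides. The 5p arms of the same hairpins have different seeds.

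The hairpins lie at several places in the genome. Identical miR-9 arms come from 3 loci: MIR9-1 (chromosome 1, 156420341 to 156420429, minus strand) in an intron of C1orf61, MIR9-2 (chromosome 5, 88666853 to 88666939, minus strand) in an exon of the lincRNA LINC00461, and MIR9-3 (chromosome 15, 89368017 to 89368106, plus strand) in an intron of MIR9-3HG. The same miR-128-3p comes from MIR128-1 (chromosome 2, 135665397 to 135665478, plus strand) in an intron of R3HDM1 and from MIR128-2 (chromosome 3, 35744476 to 35744559, plus strand) in an intron of ARPP21. MIR129-1 (chromosome 7, 128207872 to 128207943, plus strand) overlaps no other annotated gene, and MIR129-2 (chromosome 11, 43581394 to 43581483, plus strand) lies in an intron of the noncoding genes AC068205.1 and AC068205.2. MIR132 (chromosome 17, 2049908 to 2050008) and MIR212 (chromosome 17, 2050271 to 2050380) are both on the minus strand with 262 bases between them and overlap no other annotated gene. Hairpin positions are from RefSeq and overlaps from GENCODE release 29, both on GRCh38. The count tables hold no coordinates, so the positions were looked up by name.

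Of the 8 miRNAs, 7 had reads in all 4 kidney-derived libraries, and miR-124-3p was close to absent. Among all 2656 entries, 992 had a read in every library. Levels are CPM, read counts brought to the same effective library size by TMM factors. Library totals were 13780279 and 2845945 counts for CAG replicates 1 and 2, and 7927615 and 7331437 counts for PGK replicates 1 and 2, so a single read stood for 0.0777 to 0.324 CPM. miR-128-3p alone made up 84.3% and 85.1% of the reads of the 8 miRNAs in the CAG libraries, and 72.7% and 79.8% in the PGK libraries. All 8 together took 1.66% (95% Wilson interval 1.65 to 1.67) and 1.78% (1.76 to 1.79) of counts in CAG replicates 1 and 2, and 1.75% (1.74 to 1.76) and 2.18% (2.17 to 2.19) in PGK replicates 1 and 2. Such intervals hold counting error alone, since PCR copies without molecular identifiers cannot be told from separate molecules.

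**Figure D1:**
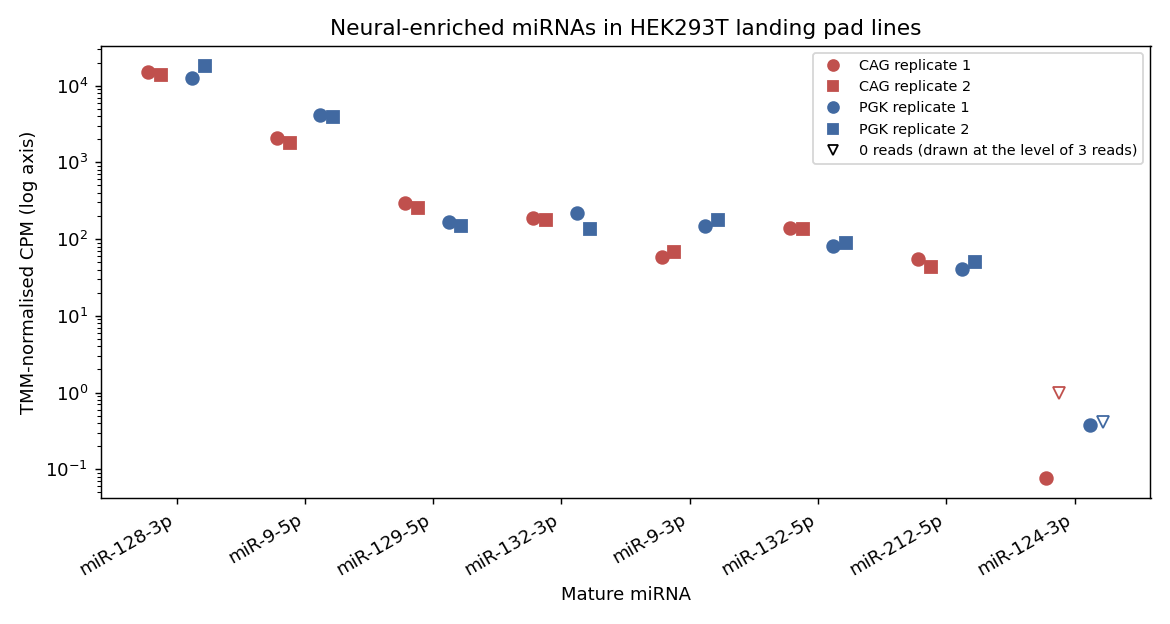
TMM-normalised CPM (log axis) of the 8 miRNAs in each of the 4 libraries, CAG to the left of PGK, ordered by mean level; open triangles mark 0 reads and stand at the level of 3 reads. miR-128-3p lies highest, with its lowest value at 12620 CPM, miR-9-5p and miR-9-3p lie lower in both CAG libraries, and miR-124-3p has 4 reads in all.

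The most abundant member was miR-128-3p, a brain-enriched miRNA. It stood at 14968 and 13940 CPM in CAG replicates 1 and 2, against 12620 and 17788 CPM in PGK replicates 1 and 2. By mean level it ranked 16 among all entries. The PGK libraries enclosed both CAG values. miR-9-5p ranked 47, with a mean of 2952 CPM over the libraries. With means between 47.5 and 216 CPM, miR-129-5p (rank 159), miR-132-3p (rank 177), miR-9-3p, miR-132-5p and miR-212-5p (rank 277) followed in that order. In the CAG libraries no 2 of these 7 ranges overlapped, but the order differed from that of the means. There miR-132-5p (141 and 134 CPM) lay above miR-9-3p (57.9 and 67.1 CPM). In the PGK libraries miR-132-3p (137.1 to 216 CPM), miR-9-3p (150 to 177 CPM) and miR-129-5p (150 to 167 CPM) could not be put in order. Adapter ligation favours some ends over others, so an order between different miRNAs is less secure than a comparison of 1 miRNA between libraries.

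miR-124-3p, which in neurons represses the splicing regulator PTBP1, had 1 read in CAG replicate 1 and 0 in CAG replicate 2, against 3 reads in PGK replicate 1 and 0 in PGK replicate 2. The pooled level was 0.0626 CPM in the CAG group (95% exact Poisson interval 0.00159 to 0.349) and 0.198 CPM in the PGK group (0.0408 to 0.578). Both groups were at or under 3 reads, the limit that a count of 0 allows, so no fold is given and no difference was detectable at this depth. The other arm, miR-124-5p, had 1 read in all, in PGK replicate 2.

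Among the 7 members that passed the low-count filter, 2 rose in CAG lines and 2 fell, and 3 did not pass the test (edgeR quasi-likelihood test, Benjamini-Hochberg adjusted p under 0.05 over 773 miRNAs). Of all miRNAs tested 14.2% were called, 8.15% higher and 6.08% lower. The members were chosen with earlier results of these data known, so their share is not set against that background as evidence. The median log2 fold change was 0.05 over the 7 members and −0.0042 over all miRNAs tested. The CPM values of the 2 groups did not overlap for 4 of the 7, a share near the 57.2% of all miRNAs tested (29.8% with CAG above PGK and 27.4% with CAG below). In bulk libraries a lower level in every cell and fewer cells with the miRNA cannot be told apart.

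**Figure D2:**
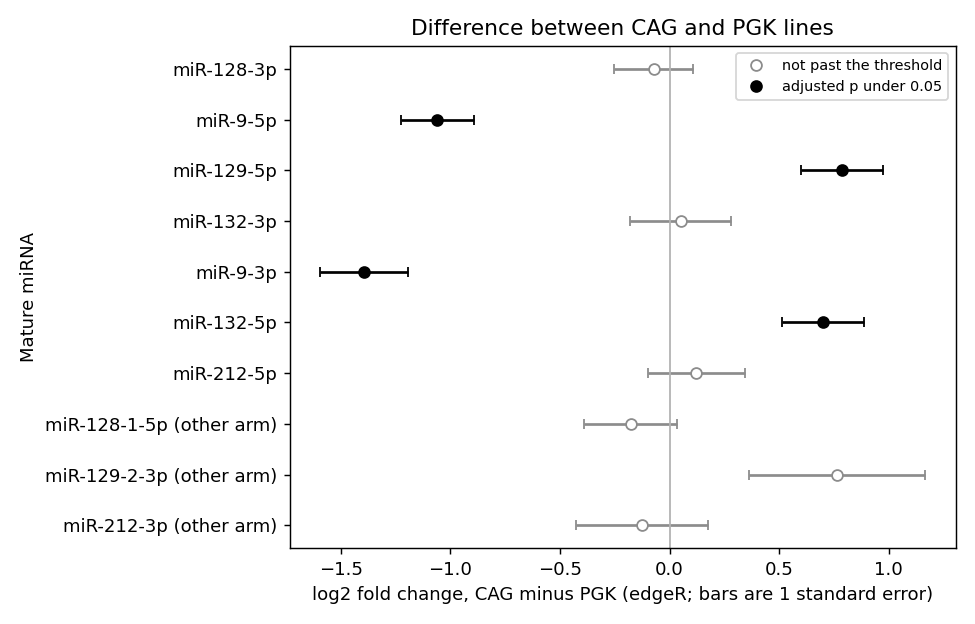
Log2 fold change, CAG minus PGK, with 1 standard error (edgeR), for the 7 tested members and the 3 tested other arms of their hairpins; filled points have an adjusted p under 0.05. Both miR-9 arms lie below 0, miR-129-5p and miR-132-5p lie above 0, and miR-132-3p at 0.05 and miR-212-5p at 0.12 lie within 1 standard error of 0.

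Both arms of miR-9 were lower in CAG lines. miR-9-5p stood at 2060 and 1767 CPM in CAG replicates 1 and 2, against 4088 and 3891 CPM in PGK replicates 1 and 2. Both CAG libraries lay below both PGK libraries, and the gap was wide beside that between replicates. The log2 fold change was −1.06 (SE 0.17, n = 2 each), or 2.08-fold lower in CAG lines (edgeR adjusted p = 0.00196). miR-9-3p stood at 57.9 and 67.1 CPM in CAG replicates 1 and 2, against 150 and 177 CPM in PGK replicates 1 and 2. The groups again did not overlap, and the log2 fold change was −1.39 (SE 0.20, n = 2 each; edgeR adjusted p = 0.000973). The call of miR-9-3p was lost without PGK replicate 2 (adjusted p = 0.108, edgeR), and that of miR-9-5p without PGK replicate 1 (0.0982) or PGK replicate 2 (0.111); such a fit takes the spread of the lone PGK library from the CAG pair.

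miR-129-5p, a brain-enriched miRNA, was higher in CAG lines. It stood at 291 and 255 CPM in CAG replicates 1 and 2, against 167 and 150 CPM in PGK replicates 1 and 2. Both CAG libraries were above both PGK libraries. The log2 fold change was 0.79 (SE 0.19, n = 2 each), or 1.73-fold (edgeR adjusted p = 0.0199). The call was lost without PGK replicate 1 (adjusted p = 0.159, edgeR) and without PGK replicate 2 (0.237).

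The neighbouring MIR132 and MIR212 hairpins gave 1 miRNA that rose and 2 members that did not pass the test. miR-132-5p stood at 141 and 134 CPM in CAG replicates 1 and 2, against 80.7 and 88.7 CPM in PGK replicates 1 and 2. These groups did not overlap, and the log2 fold change was 0.70 (SE 0.19, n = 2 each), or 1.63-fold (edgeR adjusted p = 0.0300). The call was lost without PGK replicate 1 (adjusted p = 0.234, edgeR), PGK replicate 2 (0.210) or CAG replicate 1 (0.0660), and without the low-count filter (0.0528). miR-132-3p, the arm for which most neuronal targets are described, stood at 190 and 176 CPM in CAG replicates 1 and 2, against 216 and 137.1 CPM in PGK replicates 1 and 2. The PGK replicates enclosed the CAG values, and the log2 fold change was 0.05 (SE 0.23; edgeR adjusted p = 0.899). miR-212-5p stood at 54.5 and 43.8 CPM in CAG replicates 1 and 2, against 40.9 and 50.6 CPM in PGK replicates 1 and 2. Its groups overlapped, with a log2 fold change of 0.12 (SE 0.22; edgeR adjusted p = 0.766).

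For miR-128-3p the log2 fold change was −0.07 (SE 0.18; edgeR adjusted p = 0.826). The fitted difference turned to 0.19 without PGK replicate 2, the library with its highest level, and was −0.32 without PGK replicate 1, neither past the test.

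**Figure D3:**
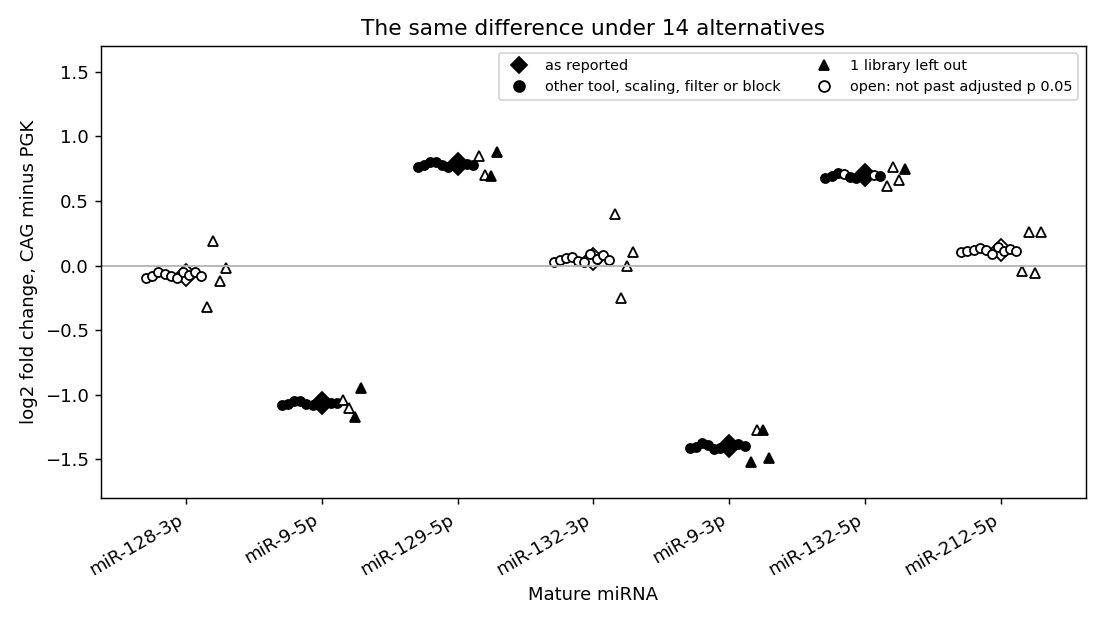
Log2 fold change, CAG minus PGK, of the 7 tested members as reported (diamonds) and under 14 alternatives: 10 of tool, scaling, filter, block or abundant miRNAs (circles) and 4 that leave out 1 library (triangles); open symbols are not past an adjusted p of 0.05. The circles stay close to each diamond, and the triangles of miR-128-3p, miR-132-3p and miR-212-5p fall on both sides of 0.

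The other arms of the same hairpins were less abundant, and none of the 3 tested passed the threshold by edgeR (0 at an unadjusted p under 0.05), nor under any alternative that tested them, DESeq2 and limma-voom included. miR-128-1-5p stood at 41.1 and 45.1 CPM in CAG replicates 1 and 2, against 52.7 and 44.1 CPM in PGK replicates 1 and 2. miR-129-2-3p stood at 8.54 and 13.3 CPM in CAG replicates 1 and 2, against 8.13 and 3.63 CPM in PGK replicates 1 and 2. Its CAG values lay above its PGK values, but the log2 fold change of 0.76 had an SE of 0.40 (edgeR adjusted p = 0.254). miR-212-3p lay between 6.60 and 8.38 CPM in the 4 libraries, with a log2 fold change of −0.12 (SE 0.30).

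Among the 5 hairpin names that passed the low-count filter, 4 favoured 1 arm by 6.25-fold or more on average, and miR-132 was close to even. Reads of entries that differ only in a locus number were summed per arm. miR-128 was the most lopsided: its 3p arm had 364 and 309 reads for each 5p read in CAG replicates 1 and 2, against 240 and 404 in PGK replicates 1 and 2. miR-9 favoured 5p, with 35.6 and 26.3 reads for each 3p read in CAG replicates 1 and 2, against 27.3 and 22.04 in PGK replicates 1 and 2. Over 192 names with both arms tested, the median fold between the arms was 10.5; it was 323 for miR-128, 27.4 for miR-9, 23.5 for miR-129, 6.25 for miR-212 and 1.65 for miR-132, as geometric means over the libraries.

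Reads of the 2 neighbours on chromosome 17 leaned to opposite arms, for miR-132 by 1.65-fold only. The 2 arms have different ends, and adapter ligation favours some ends over others. A ratio near 1 is therefore less secure as a preference than as a comparison between libraries. MIR212 gave mostly 5p, with 8.26 and 5.40 reads for each 3p read in CAG replicates 1 and 2, against 4.88 and 7.26 in PGK replicates 1 and 2. MIR132 gave more 3p than 5p in every library: the 5p to 3p ratio was 0.743 and 0.759 in CAG replicates 1 and 2, against 0.373 and 0.647 in PGK replicates 1 and 2. The CAG replicates nearly coincided, and the PGK replicates lay 0.80 apart on the log2 scale. The arms that share the seed AACAGUC differed in level within each library, with 28.8 and 21.7 reads of miR-132-3p for each read of miR-212-3p in CAG replicates 1 and 2, against 25.8 and 19.7 in PGK replicates 1 and 2.

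No arm ratio of these hairpins differed between CAG and PGK lines past the test (limma on the log2 ratio of each library, adjusted over 192 names; edgeR's differential usage test also called 0 of 5). Of all names 0.521% were called. At an unadjusted p under 0.05 both tests counted 1 of 5, miR-132, beside 14 (limma) and 18 (edgeR) of all 192 names. The log2 ratio of 5p to 3p of miR-132 was higher by 0.61 in CAG lines (SE 0.28, limma adjusted p = 0.466). Without PGK replicate 1 that difference was 0.22, and without PGK replicate 2 it was 1.01. The rise of miR-132-5p beside the near-zero fold change of miR-132-3p is thus not shown to be a change of arm usage. For miR-9 the difference of log2 ratios was 0.32 (SE 0.28; limma adjusted p = 0.980), so the arms of miR-9 were not shown to fall by different amounts.

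**Figure D4:**
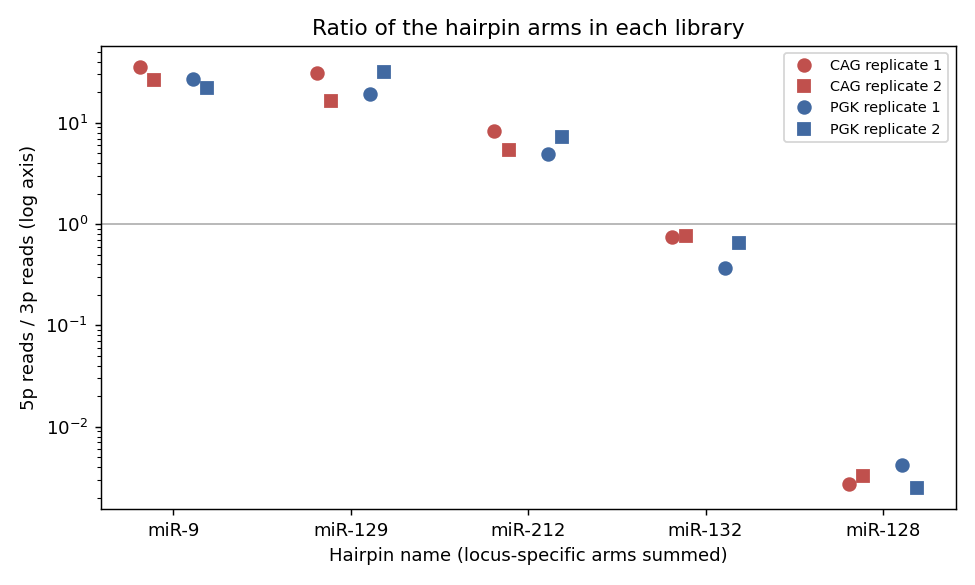
Reads of the 5p arm divided by reads of the 3p arm (log axis) for the 5 hairpin names in each of the 4 libraries, CAG to the left of PGK. miR-9, miR-129 and miR-212 lie above 1, miR-132 lies below 1 in all 4 libraries, and miR-128 lies below 0.005.

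The other arms of miR-128-3p and miR-129-5p were counted under a name for each locus. The 5p arms of the miR-128 hairpins have different sequences, shown here with the seed in capitals.
miR-128-1-5p: cGGGGCCGuagcacugucugaga
miR-128-2-5p: gGGGGCCGauacacuguacgaga
miR-128-1-5p, from the hairpin in R3HDM1, had 668 reads in the CAG libraries and 737 in the PGK libraries. miR-128-2-5p, from the hairpin in the ARPP21 gene, had 0 reads in all 4 libraries. A count of 0 beside 1405 reads of miR-128-1-5p allows a share of up to 0.214% of the 5p reads. The counts of miR-128-3p itself cannot be divided between the loci.

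The 3p arms of the miR-129 hairpins differ at 1 position, counted from 1 at the 5′ end of miR-129-1-3p (U20C, with the base of miR-129-1-3p first). Both are shown with the seed in capitals.
miR-129-1-3p: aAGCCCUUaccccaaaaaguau
miR-129-2-3p: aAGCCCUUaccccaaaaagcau
miR-129-2-3p took 91.7% (95% Wilson interval 85.3 to 95.4) and 85.4% (72.8 to 92.8) of the reads of both in CAG replicates 1 and 2, and 94.2% (86.02 to 97.7) and 76.5% (60.0 to 87.6) in PGK replicates 1 and 2. The pooled shares were 89.9% of 168 reads in CAG lines and 88.3% of 103 reads in PGK lines. With a single base between them, the division of reads depends on how the authors counted near-identical entries, a step no label or file header describes.

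Seed families were deposited as a separate table, in which reads are summed over miRNAs with the same seed. The 7 members with a sequence belonged to 7 families, and the summed counts of the miRNAs with each seed equalled the family count in every library. Of these, 5 families had 1 miRNA and so hold the same counts as the member. CACAGUG also held miR-216a-3p, with 24 reads in CAG and 9 in PGK lines, and miR-3681-3p, with none; miR-128-3p made up 99.99% of it. AACAGUC held miR-132-3p at 96.2% and miR-212-3p at 3.83%, and had a log2 fold change of 0.01 (SE 0.23; edgeR adjusted p = 0.979). Over 642 families tested 10.4% were called, 5.76% higher and 4.67% lower. CUUUGGU (miR-9-5p) and UAAAGCU (miR-9-3p) fell and UUUUUGC (miR-129-5p) rose, with edgeR adjusted p-values of 0.00449, 0.00273 and 0.0361. CUUUGGU was not called without PGK replicate 1 (edgeR adjusted p = 0.128) or PGK replicate 2 (0.0774), and UAAAGCU was not called without PGK replicate 1 (0.0572) or CAG replicate 1 (0.0968). UUUUUGC lost its call when CAG replicate 1 was left out (edgeR adjusted p = 0.190), when either PGK library was (0.197 for replicate 1 and 0.237 for replicate 2), and with no low-count filter (0.0882). CCGUGGC, with the counts of miR-132-5p, missed the threshold at a log2 fold change of 0.67 (edgeR adjusted p = 0.0524). It was called higher by DESeq2 (adjusted p = 0.0386) and with library size alone as scaling (edgeR adjusted p = 0.0338), and not in the other 6 of 8 alternatives.

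Other miRNAs enriched in nervous tissue did not move 1 way. Of 24 listed, 14 had a read in every library, 5 had none in any, and 14 were tested, of which 3 rose, 3 fell and 8 were not called, with a median log2 fold change of −0.03. Over all miRNAs tested 14.2% were called, 8.15% higher and 6.08% lower. This list too was chosen with earlier results of these data known, so its share is not set against that background as evidence. The 5 without reads were miR-137-3p, miR-153-3p, miR-325, miR-490-3p and miR-770-5p. Among the risers, miR-218-5p of motor neurons stood at 27274 and 24156 CPM in CAG replicates 1 and 2, against 6281 and 6746 CPM in PGK replicates 1 and 2, a 3.95-fold rise. miR-330-3p rose 1.73-fold and miR-874-3p 1.80-fold. miR-330-3p lost its call in 7 of 14 alternatives and miR-874-3p in 3.

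The fallers included 2 miRNAs that were nearly absent from CAG lines. miR-873-5p had 1 read in CAG and 238 reads in PGK libraries, a ratio of PGK to CAG of 251 after scaling (95% exact interval 44.5 to 9937). miR-383-5p had 0 reads in CAG and 44 in PGK libraries, at least 15.4-fold lower in CAG lines with 3 reads over the CAG group as the limit. miR-708-5p, at a log2 fold change of −0.76, fell as well (SE 0.19; edgeR adjusted p = 0.0235). miR-873-5p kept its call in all 14 alternatives, miR-383-5p lost it in 3 of 13 and miR-708-5p in 3 of 14. Of the abundant ones that were not called, miR-7-5p averaged 59075 ± 24873 CPM in CAG and 44402 ± 4442 CPM in PGK lines (SD, n = 2 each), and the log2 fold changes were 0.38 for miR-598-3p, 0.05 for miR-149-5p and −0.11 for miR-95-3p. miR-7-5p was called higher without CAG replicate 2 (log2 fold change 0.79).

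The miRNAs whose levels over the 4 libraries ran closest to that of miR-9-5p, among 356 others with a mean of at least 20 CPM, were miR-192-5p at a Euclidean distance of 0.157 between log2 CPM values centred on their own means, miR-194-5p at 0.292 and miR-708-5p at 0.300. miR-9-3p lay at 0.493 from miR-9-5p. Closest to miR-132-5p were miR-181a-5p (0.0816), miR-99a-5p (0.148) and miR-374b-3p (0.148). Each distance rests on 4 values, in 2 groups.

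Marker miRNAs of other cell types were also read. All 4 kidney epithelium markers (miR-192-5p, miR-204-5p, miR-194-5p and miR-215-5p) had reads in every library, and their summed level was 3608 and 3142 CPM in CAG replicates 1 and 2, against 6173 and 6619 CPM in PGK replicates 1 and 2. The list did not move one way. miR-192-5p, most of the sum, averaged 2982 ± 333 CPM in CAG and 5783 ± 268 CPM in PGK lines (SD, n = 2 each; edgeR adjusted p = 0.00303), and miR-194-5p 243 ± 6.74 CPM in CAG and 480.03 ± 49.6 CPM in PGK lines (adjusted p = 0.00513). Neither was called without PGK replicate 1 or without PGK replicate 2. miR-204-5p was higher in CAG lines, at 21.1 ± 1.39 CPM against 6.31 ± 2.22 CPM in PGK lines (edgeR adjusted p = 0.00330), a call lost without PGK replicate 2. miR-215-5p did not pass the test, with a log2 fold change of 0.03 (SE 0.18; edgeR adjusted p = 0.923). The part of these markers in the miR-9 difference was not tested. The 7 blood-cell markers summed to 43.7 and 51.9 CPM in CAG replicates 1 and 2, against 37.4 and 43.8 CPM in PGK replicates 1 and 2, nearly all of it miR-486-5p, and miR-223-3p of myeloid cells had 0 reads. The 7 muscle markers summed to 24.9 and 23.7 CPM in CAG replicates 1 and 2, against 113 and 104 CPM in PGK replicates 1 and 2, most of it miR-1-3p, and miR-208a-3p and miR-208b-3p had 0 reads. Of the 3 muscle markers tested, 2 were called lower in CAG lines and 1 was not called, beside 6.08% lower of all miRNAs tested. miR-1-3p was 1 of the lower ones, with a log2 fold change of −2.61 (SE 0.22, edgeR adjusted p = 9.33e-06). The other, miR-133a-3p, had 4 and 0 reads in CAG replicates 1 and 2, against 20 and 14 in PGK replicates 1 and 2. DESeq2 did not call miR-133a-3p. The liver marker miR-122-5p averaged 1.24 CPM and the islet marker miR-375-3p 113 CPM over the libraries, and neither was called.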

How the data were processed

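Per the labels' protocols, total RNA was isolated with Trizol and the NEBNext Small RNA kit was used for the libraries. The authors deposited whole-number counts per mature miRNA and per 7-base seed family, with 1 column per library, the trimming, aligner, counting rule, annotation and genome build not given in the sources used here. Chi-square statistics of replicates were 66.1 and 125 per degree of freedom, so no library was a copy of another.

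Counts were tested with edgeR 4.0.16 in R 4.3.3 (quasi-likelihood, robust, TMM factors, filterByExpr by group with a minimum count of 10 and total of 15), with the group alone in the model, CAG minus PGK, two-sided p-values and Benjamini-Hochberg adjustment over all rows tested. Standard errors came from the fold change and the F statistic. Arm ratios were tested with limma 3.58.1 on log2 ratios with a pseudocount of 0.5. Alternatives used DESeq2 1.42.0, limma-voom and other scalings, filters and sample sets. The code was tested on simulated counts. Python 3.11.15, scipy 1.17.1 and matplotlib 3.10.9 gave intervals and figures.

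The members and lists were chosen with earlier results of these data known. The text names all members and the other arms of their hairpins. From the neural list it names the called miRNAs and up to 4 more of the most abundant. It also names the top miRNA of each marker list and the 3 nearest patterns of miR-9-5p and miR-132-5p. Named after their values were seen were miR-223-3p, miR-133a-3p, miR-208a-3p, miR-208b-3p, the kidney markers, and the neural markers without reads.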

Additional observations from a re-analysis of the deposited data

How the results depend on the processing

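The members split into 2 higher and 2 lower under RLE, upper-quartile and library size scaling, a filter of 10 CPM, DESeq2, limma-voom, the older edgeR method and removal of the 5 most abundant miRNAs. The count of members called higher was 1 without the low-count filter and 0 at an adjusted p under 0.01 (edgeR; 2 at an unadjusted p under 0.05, and 2 by DESeq2 at 0.05), and 0 to 2 with 1 library left out. Members called lower numbered 0 to 2 with 1 library left out. All miRNAs called numbered 110, against 49 at an adjusted p under 0.01 and 16 to 162 with 1 library left out; most calls were lost without PGK replicate 1 (19) or PGK replicate 2 (16), and the cause was not tested. Seed families called numbered 67, and 14 to 60 with 1 library left out. Arm ratios called numbered 1, against 2 with a pseudocount of 2, 0 with the 10 CPM filter (limma, 5 at an unadjusted p under 0.05), 0 by edgeR's differential usage test (18 unadjusted) and 1 to 3 with 1 library left out.

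With 1 library left out, uncalled differences changed sign. The log2 fold change ran from −0.32 to 0.19 for miR-128-3p, −0.25 to 0.40 for miR-132-3p and −0.0552 to 0.264 for miR-212-5p, and the difference of log2 arm ratios from −0.49 to 0.27 for miR-128, −0.59 to 0.35 for miR-129 and −0.15 to 0.48 for miR-212. All of these stayed short of the threshold.

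The replicate numbers did not pair the libraries: deviations of same-numbered libraries correlated at −0.02 over 773 miRNAs. With the replicate number as a block, 63 miRNAs, 21 families and 0 arm ratios (limma, 10 at an unadjusted p under 0.05) were called, with 1 member higher (miR-129-5p) and 2 lower. Under that block miR-132-5p was not called (edgeR adjusted p = 0.0640), nor were the families CUUUGGU (0.0690) and UUUUUGC (0.115). The shallowest library, CAG replicate 2, limits rare entries: 0 reads there allow up to 0.972 CPM.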

Other observations

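Reads of the 2 neighbouring hairpins on chromosome 17 were also set against each other, 5p with 5p and 3p with 3p. For each read of miR-132-5p there were 0.386 and 0.328 reads of miR-212-5p in CAG replicates 1 and 2, against 0.507 and 0.571 in PGK replicates 1 and 2. These groups did not overlap, as for 57.2% of single miRNAs tested. The 3p ratio, miR-132-3p to miR-212-3p, overlapped, at 28.8 and 21.7 in CAG replicates 1 and 2, against 25.8 and 19.7 in PGK replicates 1 and 2. The ratio of miR-128-3p to miR-9-5p, the most abundant members, was 7.27 and 7.89 in CAG replicates 1 and 2, against 3.09 and 4.57 in PGK replicates 1 and 2. None of these ratios was tested, and the overlap of such ratios was not counted over other pairs of miRNAs.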
